A study of Homo sapiens with 24 samples.

Results

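The histone marks of 35 antigen presentation and interferon response genes, of 20136 protein-coding genes in all, were examined in PANC-1, an established human cell line of pancreatic ductal adenocarcinoma. The genes were taken by name from a list. They fall into 13 genes of the MHC class I pathway, 12 genes of the MHC class II pathway and 10 interferon factors or interferon-induced genes. ChIP-seq of H3K4me3, H3K27ac and H3K27me3 was available as 18 peak lists, 6 per mark, from cells transfected with a control siRNA and left untreated (siControl), cells with the control siRNA given TGFβ (siControl+TGFβ) and cells with an siRNA against PHF13 given TGFβ (siPHF13+TGFβ), with 2 libraries per condition. TGFβ was used at 10 ng/ml for 48 h, and all 3 conditions share the cell line and the transfection. PHF13 depletion without TGFβ was not analysed here, so its effect was measured in TGFβ-treated cells alone. Each value below is the number of base pairs (bp) covered by peaks of a mark within 5 kb on either side of the transcription start site (TSS) of a gene, a window of 10001 bp. Values are listed as replicate 1 and replicate 2 of a condition.

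MHC class I molecules display peptides from inside the cell on nearly every nucleated cell type. Their heavy chains pair with B2M, and the peptides are cut by the proteasome, which can carry the PSMB8, PSMB9 and PSMB10 subunits, carried into the endoplasmic reticulum by TAP1 and TAP2, and loaded with the help of TAPBP. MHC class II molecules present peptides from outside the cell, chiefly on professional antigen-presenting cells, and their transcription depends on the coactivator CIITA, as that of class I genes depends in part on NLRC5. Interferons raise the expression of class I genes and of antiviral genes through STAT and IRF factors, and interferon gamma can induce CIITA and thereby class II genes in other cell types. H3K4me3 marks promoters in use or ready for use, H3K27ac marks active promoters and enhancers, and H3K27me3 is laid down by Polycomb complexes over silenced genes.

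The lists differed in length within conditions, which bears on every comparison. H3K4me3 lists held 27869 to 39202 peaks, H3K27ac lists 6004 to 36104 and H3K27me3 lists 59573 to 165717. In siPHF13+TGFβ replicate 1 the list was the shortest for all 3 marks, and its H3K27ac peaks covered 1.89 Mb against 11.0 to 31.9 Mb in the other lists. In both conditions with TGFβ, the peaks are named with abbreviations that do not match the labels (3AT in siControl+TGFβ, and in siPHF13+TGFβ NCT, which the study uses for siControl+TGFβ). Groups follow the labels, and directions between these conditions hold only if the labels are right. All 5 epithelial marker genes examined (KRT8, KRT18, KRT19, EPCAM and CDH1) had an H3K4me3 peak in all 6 lists, against 70.7% of all coding genes. Of 10 leukocyte marker genes 8 had none, against 24.1% of all coding genes, and CD14 was the single one with a peak in all 6. The epithelial genes differed in the other marks. KRT8, KRT18 and KRT19 had H3K27ac in at least 5 lists and no H3K27me3. EPCAM and CDH1 had no H3K27ac in any list, and H3K27me3 in 6 and 5 lists. At PHF13 itself H3K4me3 covered 2205 to 3084 bp, which does not measure depletion, because an siRNA acts on the transcript.

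The sequences before the TSS of 4 of the genes are shown to illustrate the promoters of class I and interferon genes, read on the coding strand from GRCh37 as the 200 bases that end at the base before the TSS. Capitals mark the core of the interferon-stimulated response element (ISRE, the site of STAT and IRF complexes, searched as GAAANNGAAA) and the Y box (searched as CCAAT, the site of the NF-Y factor and a part of MHC promoters), each on both strands.
B2M (chr15:45003515-45003714, plus strand): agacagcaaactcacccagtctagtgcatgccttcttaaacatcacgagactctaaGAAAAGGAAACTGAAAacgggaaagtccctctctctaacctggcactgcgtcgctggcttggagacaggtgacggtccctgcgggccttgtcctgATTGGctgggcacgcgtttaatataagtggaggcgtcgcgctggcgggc
HLA-B (chr6:31324957-31325156, minus strand): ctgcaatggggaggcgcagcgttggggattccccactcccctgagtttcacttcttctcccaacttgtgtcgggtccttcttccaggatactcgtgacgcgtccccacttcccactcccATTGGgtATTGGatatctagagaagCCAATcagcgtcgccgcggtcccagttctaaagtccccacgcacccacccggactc
ISG15 (chr1:948677-948876, plus strand): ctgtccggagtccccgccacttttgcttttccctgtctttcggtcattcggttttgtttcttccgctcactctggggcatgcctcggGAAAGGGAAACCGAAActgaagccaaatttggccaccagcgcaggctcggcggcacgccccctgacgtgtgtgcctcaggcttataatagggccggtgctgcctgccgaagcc
IFIT1 (chr10:91152180-91152379, plus strand): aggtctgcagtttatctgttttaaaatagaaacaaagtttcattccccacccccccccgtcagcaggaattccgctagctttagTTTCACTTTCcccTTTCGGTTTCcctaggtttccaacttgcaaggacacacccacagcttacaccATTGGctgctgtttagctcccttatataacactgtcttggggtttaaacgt
In these windows B2M and ISG15 hold overlapping ISRE cores, IFIT1 holds a pair of separate ones, and HLA-B holds Y boxes without an ISRE match.

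Over the 250 bases before the TSS, the 3 classes differed in these letters. An ISRE core was found in 6 of 13 class I, 1 of 12 class II and 4 of 10 interferon promoters, against 2.87% of all coding promoters. Y boxes were found in 8 class I, 10 class II and 4 interferon promoters, against 34.2% of all. The gamma-activated site (GAS, bound by STAT dimers, searched as TTCNNNGAA) was found in 1, 1 and 4 promoters, against 5.66% of all. Promoters of class II genes were poor in CpG, with a median of 2.5 CpG per 250 bases, against 15 for class I, 11 for interferon genes and 18 for all coding genes. HLA-DPA1 was the exception among class II genes with 21.

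Class I windows held H3K4me3, class II windows mostly held H3K27me3, and most interferon windows held H3K4me3 and no H3K27me3. An H3K4me3 peak was present in all 6 lists at 12 of 13 class I and 9 of 10 interferon genes but at 2 of 12 class II genes, against 70.7% of all coding genes. H3K27me3 was present in all 6 lists at 9 class II genes, 4 class I genes and 0 interferon genes, against 19.6% of all coding genes. It covered the TSS itself in all 6 lists at 2 class II genes (HLA-DRB1 and HLA-DQB1), and in none at 2 others. H3K27ac was absent from the windows of all 12 class II genes in all 6 lists, which held for 37.7% of all coding genes, and was present in all 6 at 3 class I and 2 interferon genes, against 19.7% of all coding genes. The heatmap of coverage by library shows the 3 blocks.

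**Figure D1:**
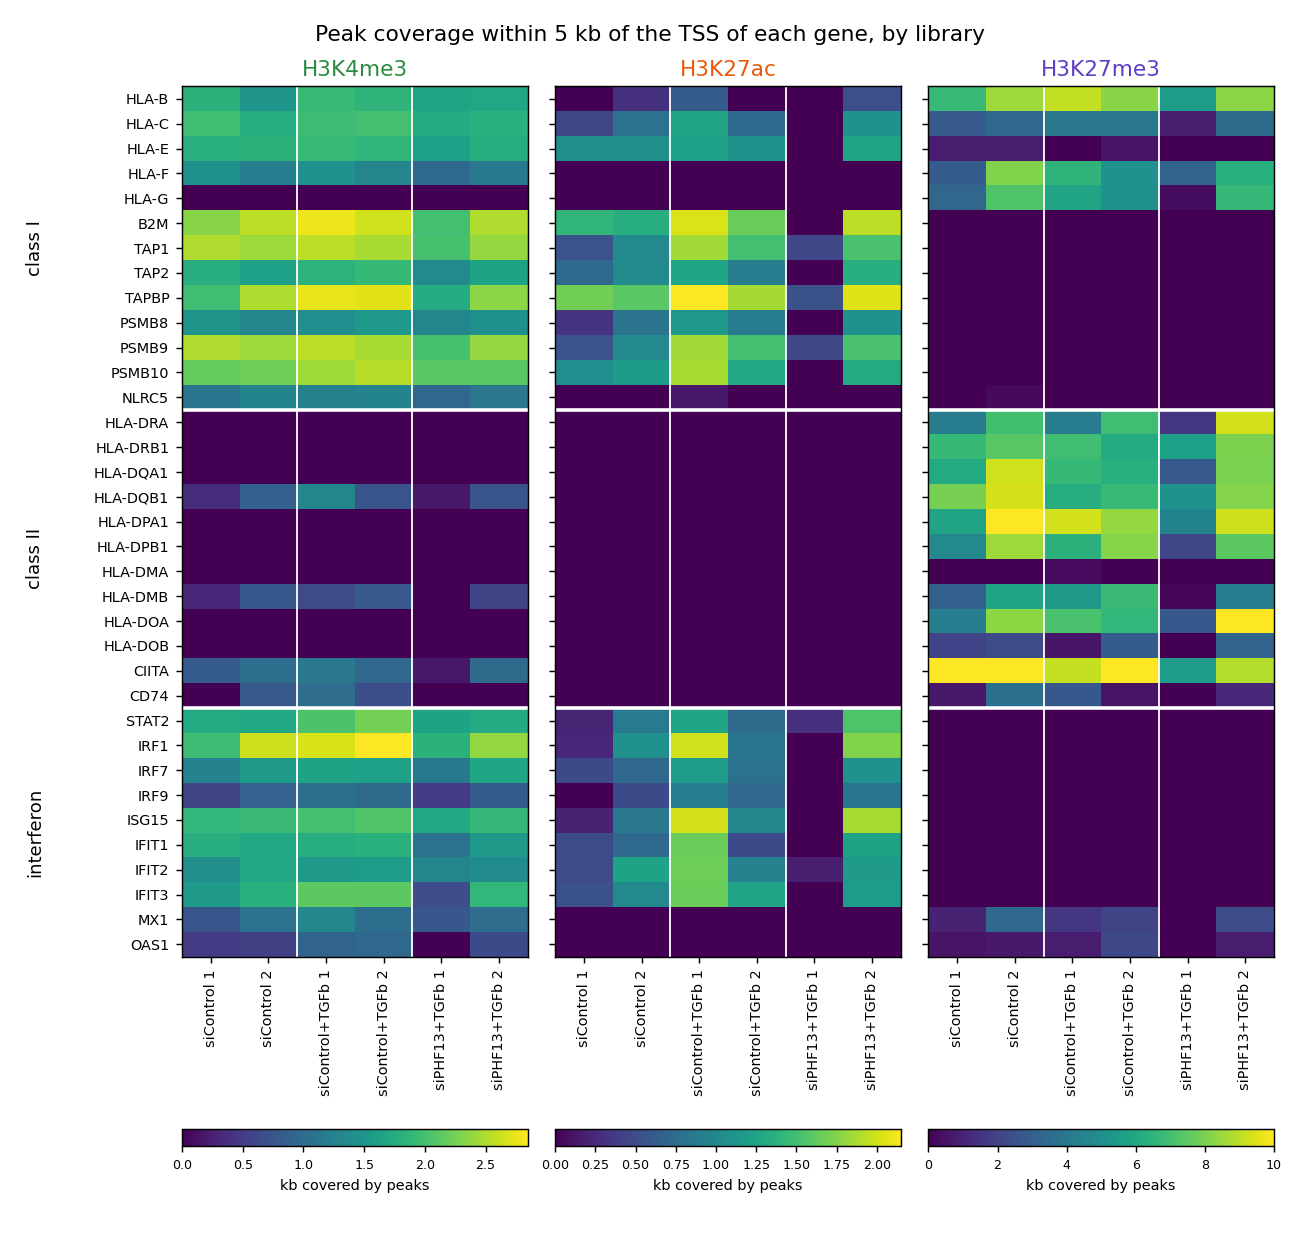
Peak coverage in kb within 5 kb of the TSS for the 35 genes (rows, in 3 classes) in each of the 6 libraries (columns) of each mark; each panel has its own colour scale. H3K4me3 fills the interferon block and the class I block apart from HLA-G, H3K27ac is also missing at HLA-F, MX1 and OAS1 and nearly so at NLRC5, and H3K27me3 fills the class II block apart from HLA-DMA, and HLA-B, HLA-C, HLA-F and HLA-G; siPHF13+TGFβ replicate 1 is the darkest column for H3K27ac.

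Among class I genes, the widest H3K4me3 lay in the windows of the light chain and peptide supply genes. At B2M, the light chain shared by all class I molecules, H3K4me3 covered 2336 and 2560 bp under siControl, 2776 and 2638 bp under siControl+TGFβ, and 1999 and 2504 bp under siPHF13+TGFβ. TAPBP, the chaperone tapasin, had 1970 and 2498 bp, 2741 and 2714 bp, and 1752 and 2349 bp. For both genes the siControl+TGFβ libraries were the highest and did not overlap with the others. TAP1, a subunit of the peptide transporter, and PSMB9, a subunit of the immunoproteasome, start in opposite directions from a shared promoter, and their windows gave the same values of 2509 and 2430 bp, 2561 and 2475 bp, and 2023 and 2401 bp. All 4 windows thus held H3K4me3 of similar width. Over the 6 libraries, H3K4me3 covered means of 1692 bp at the remaining transporter subunit TAP2 and 1404.5 and 2267 bp at the immunoproteasome subunits PSMB8 and PSMB10. At the class I transactivator NLRC5 the mean was 1164 bp. The TAP2 window also took in the edge of the PSMB8 peak in all 6 lists, so the TAP2 values are not from its own peak alone. Other coding TSSs also lay in the windows of B2M (PATL2), TAPBP (ZBTB22) and PSMB10 (CTRL and an unnamed gene). Values of any mark at these genes can thus include peaks of the neighbours, which were not separated. H3K4me3 covered the TSS in all 6 lists at 11 of the 13 genes, and at PSMB10 in 5 with the nearest base 11 bp away in the remaining list.

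H3K27ac was found at 11 class I genes. At TAPBP it covered 1695 and 1600 bp under siControl, 2149 and 1858 bp under siControl+TGFβ, and 532 and 2042 bp under siPHF13+TGFβ. B2M had 1412 and 1349 bp, 2030 and 1665 bp, and 0 and 1939 bp. TAP1 and PSMB9 shared 549 and 1029 bp, 1849 and 1508 bp, and 470 and 1528 bp. At all 4 genes both siControl+TGFβ libraries lay above both siControl libraries, whereas siPHF13+TGFβ replicate 1 lay below and replicate 2 above both siControl libraries. Of the class I genes with H3K27ac, only TAP1, PSMB9 and TAPBP kept a peak in siPHF13+TGFβ replicate 1, the list with 6004 peaks. NLRC5 had a peak of 148 bp in siControl+TGFβ replicate 1 and none in the other lists, so that the class I transactivator carried H3K4me3 nearly without H3K27ac.

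The heavy chain genes differed among themselves. H3K4me3 covered the TSS of HLA-B, HLA-C, HLA-E and HLA-F in all 6 lists, with means of 1739, 1874, 1805 and 1255 bp, whereas HLA-G, whose protein is known mainly from the placenta, had none closer than 20.4 kb. H3K27ac differed more between them. At HLA-E it covered 1071 to 1257 bp in 5 lists, at HLA-C 462 to 1257 bp in 5 lists and at HLA-B 306 to 631 bp in 3 lists, and HLA-F and HLA-G had none in any list. HLA-F thus carried H3K4me3 without H3K27ac. Heavy chain genes resemble each other in sequence, and reads shared between them could have been placed at either copy, so values of single heavy chain genes are uncertain to that extent.

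H3K27me3 was present at 4 of the 5 heavy chain genes in all 6 lists, and at none of the 7 genes B2M, TAP1, TAP2, TAPBP, PSMB8, PSMB9 and PSMB10. At HLA-B it covered 6732 and 8549 bp under siControl, 9101 and 8235 bp under siControl+TGFβ, and 5518 and 8255 bp under siPHF13+TGFβ. At HLA-C the values were 2860 and 3392 bp, 3949 and 4018 bp, and 815 and 3533 bp. These large values lay beside the TSSs and not on them. The nearest H3K27me3 base was 237 to 1140 bp upstream of the HLA-B TSS and 1290 to 3211 bp upstream of the HLA-C TSS. At HLA-F the mark spanned 2923 and 8104 bp, 6513 and 5068 bp, and 3237 and 6353 bp. Here it lay over the TSS in all 6 lists, the single class I gene of which this held. HLA-G had 3316 and 7236 bp, 5843 and 5041 bp, and 344 and 6667 bp, with the nearest base 128 to 2356 bp from the TSS. At HLA-E it was found in 3 lists, both siControl lists (770 and 747 bp) and siControl+TGFβ replicate 2 (576 bp). The plot of peaks around each heavy chain TSS shows these arrangements.

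**Figure D2:**
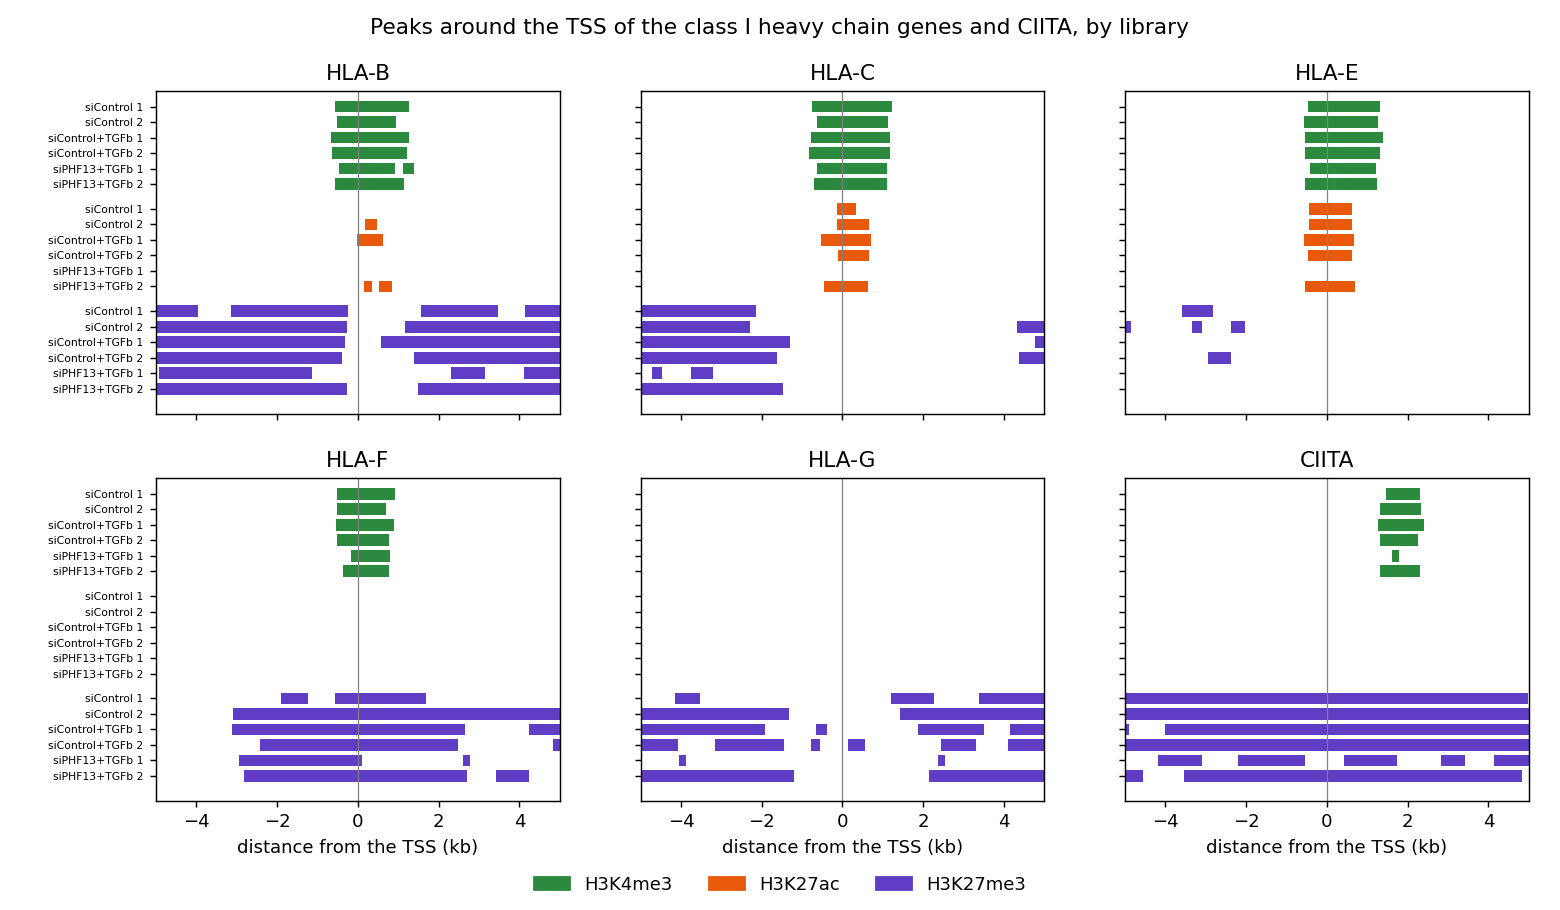
Peaks within 5 kb of the TSS (grey line; x axis in kb, negative upstream) of HLA-B, HLA-C, HLA-E, HLA-F, HLA-G and CIITA; each row is 1 library, in the same order for H3K4me3 (green), H3K27ac (orange) and H3K27me3 (purple). H3K27me3 stops short of the HLA-B and HLA-C TSS, where H3K4me3 lies, and overlies H3K4me3 at HLA-F and CIITA.

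To ask whether both marks fell on the same bases, those covered in both libraries of a condition were counted. In siControl cells 1216 bp of HLA-F carried both, which was 100% of its H3K4me3, and at HLA-B 249 bp did, 16.9% of its H3K4me3. At HLA-C and HLA-E no base did. At HLA-F it was also 100% in siControl+TGFβ. The 29.2% found there in siPHF13+TGFβ was set by replicate 1, the shortest list, in which H3K27me3 ended close to the TSS, whereas in replicate 2 it spanned the whole H3K4me3 peak. Overlap of peaks from separate libraries does not show that both marks sat on the same nucleosome or allele.

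Class II genes were covered by H3K27me3 in nearly their whole windows in several cases. At CIITA, the class II master regulator, it covered 9991 and 10001 bp under siControl, 9116 and 10001 bp under siControl+TGFβ, and 5501 and 8835 bp under siPHF13+TGFβ, so that the siPHF13+TGFβ libraries lay below the others. HLA-DPA1, the alpha chain of HLA-DP, had 5853 and 10001 bp, 9306 and 8410 bp, and 4502 and 9254 bp. HLA-DPB1, its beta chain with a TSS inside the same window, had 4692 and 8524 bp, 6437 and 8180 bp, and 2145 and 7479 bp. In both HLA-DP genes the replicates of siControl and of siPHF13+TGFβ lay further apart than the means of any conditions did.

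The HLA-DQ and HLA-DR chains had like amounts. HLA-DQB1 had 7965 and 9349 bp, 6234 and 6754 bp, and 5119 and 8141 bp. HLA-DQA1 had 6126 and 9264 bp, 6719 and 6342 bp, and 2797 and 7987 bp. For HLA-DQB1 both siControl+TGFβ libraries lay below both siControl libraries, and for HLA-DQA1 they overlapped. HLA-DRB1 had 6693 and 7403 bp, 6936 and 6156 bp, and 5685 and 8020 bp, the narrowest range of the 4 genes. HLA-DRA had 4212 and 6988 bp, 4228 and 6943 bp, and 1588 and 9328 bp. The strongest H3K27me3 peak at HLA-DRB1 had an authors' fold enrichment of 4.49 to 5.03 and ranked at percentile 98.3 to 99.7 of its list by −log10 q. HLA-DRB1 has close copies in the region, and its reads are uncertain in the same way as those of the heavy chains.

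The genes for peptide exchange on class II molecules were less uniform. At HLA-DOA, which restrains peptide exchange together with HLA-DOB, H3K27me3 spanned 4264 and 8301 bp, 7116 and 6638 bp, and 2740 and 10001 bp. HLA-DMB, a chain of the exchange catalyst HLA-DM, had 3049 and 5827 bp, 5386 and 6817 bp, and 176 and 4206 bp. For HLA-DMB both siPHF13+TGFβ libraries lay below both siControl+TGFβ libraries, and for HLA-DOA they lay on either side. HLA-DOB had 1998 and 2299 bp, 570 and 2931 bp, and 0 and 3183 bp, downstream of its TSS. CD74, the invariant chain that guides class II molecules, had 631 and 3670 bp, 2752 and 524 bp, and 0 and 1135 bp. HLA-DMA, the partner chain of HLA-DMB, had 305 bp in siControl+TGFβ replicate 1 and none in the other 5 lists, and no H3K4me3 or H3K27ac in this window. When all annotated coding TSSs were used, HLA-DMA had H3K27ac in all 6 lists, 15.0 to 16.2 kb upstream of the TSS used here. Whether that H3K27ac belongs to HLA-DMA or to a neighbouring gene was not examined.

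H3K4me3 appeared at 4 class II genes. At CIITA it covered 832 and 1032 bp under siControl, 1138 and 944 bp under siControl+TGFβ, and 187 and 987 bp under siPHF13+TGFβ. This peak did not lie on the TSS used for the window (chr16:10971059) but began 1261 to 1605 bp downstream of it, and in all 6 lists it covered another annotated coding TSS of CIITA 1767 bp downstream. The remaining TSSs of CIITA had no H3K4me3 in any list, and H3K27me3 covered the one at 1767 bp in 5 lists. At HLA-DQB1 the H3K4me3 values were 375 and 872 bp, 1294 and 738 bp, and 193 and 742 bp, within the gene and 1134 to 1454 bp downstream of the TSS in 5 lists. HLA-DMB had 324 and 781 bp, 659 and 800 bp, and 0 and 600 bp, at its TSS or within 4 bp of it, and CD74 had 0 and 797 bp, 1022 and 689 bp, and 0 and 0 bp. At CIITA and HLA-DQB1 100% of the H3K4me3 bases shared by the siControl libraries also carried H3K27me3.

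The H3K4me3 peaks at HLA-DQB1 and CIITA lay in the lower or middle part of their lists by −log10 q. Those at HLA-DQB1 ranked at percentile 5.44 to 44.9 of their lists. Those at CIITA ranked at 1.15 in siPHF13+TGFβ replicate 1 and at 40.2 to 55.3 in the other lists. Those at HLA-DMB reached 69.9, whereas those at HLA-B ranked at 81.6 to 92.4. With peaks of a −log10 q of at least 3 alone, 0 class II genes kept H3K4me3 in all 6 lists, against 2 without this filter. Just outside its window HLA-DRB1 had an H3K4me3 peak in all 6 lists, 551 to 1013 bp wide and starting 5132 to 5261 bp downstream of the TSS inside the gene, so that its count of 0 depends on the window.

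The class II genes on chromosome 6 were compared with the class I processing genes that lie among them. From the HLA-DRA TSS to the HLA-DOB TSS (chr6:32407664-32784779), H3K27me3 covered 37.6% and 61.8% of the bases under siControl, 40.7% and 49.6% under siControl+TGFβ, and 20.4% and 53.3% under siPHF13+TGFβ, against 1.57% to 9.46% of the genome. From the TAP2 TSS to the PSMB9 TSS (chr6:32806516-32821969), which also holds PSMB8 and TAP1, it covered 0% in all 6 lists. Beyond that, from HLA-DMB to HLA-DPB1 (chr6:32908805-33043767), it covered 10.5% to 49.6%. H3K4me3 covered 18.0% to 21.7% of the bases between TAP2 and PSMB9, against 0.803% to 1.33% of the genome. It covered 0.388% to 1.30% between HLA-DRA and HLA-DOB, below the genome's share in each library, and 2.21% to 3.03% between HLA-DMB and HLA-DPB1. H3K27ac covered 0% between HLA-DRA and HLA-DOB in all 6 lists and 3.04% to 17.1% between TAP2 and PSMB9. Between HLA-DMB and HLA-DPB1 it covered 0.839% to 2.44%, against 0.0611% to 1.03% of the genome. This H3K27ac lay 528.2 to 531.8 kb from the HLA-DRA TSS, apart from a peak at 543.7 kb in siControl+TGFβ replicate 2. The class II TSSs used here on either side were HLA-DMA at 513.2 kb and HLA-DOA at 569.7 kb, so the share does not describe class II windows.

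The stretch free of H3K27me3 around TAP1 measured 48.4 to 62.4 kb in the 6 libraries, and 48.4 kb of it (chr6:32784443-32832870) were free in all. Stretches without H3K27me3 in all 6 libraries also lay downstream of HLA-DRA and between HLA-DMA and HLA-DOA, so it was not the only one. The stretch around TAP1 held the TSSs of TAP1, TAP2, PSMB8 and PSMB9 and, at its edge, of HLA-DOB. The nearest H3K27me3 peak was 10.9 to 16.3 kb from the PSMB9 TSS and 22.1 to 30.7 kb from the TAP2 TSS. The map of the region shows the gap at about the same place in every library, although the H3K27me3 lists ranged from 48.6 to 293 Mb in covered length.

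**Figure D3:**
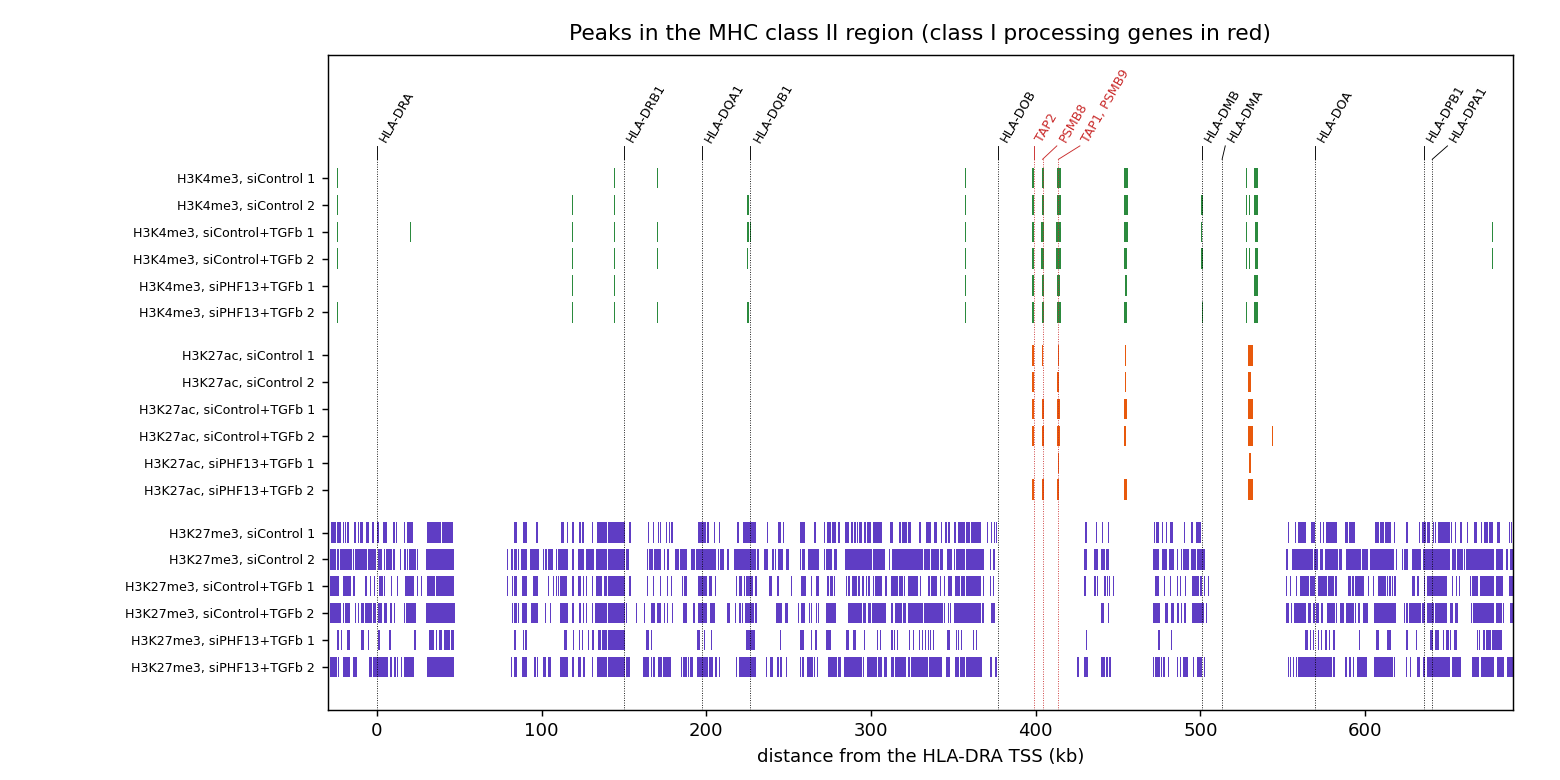
Peaks (bars) of each mark in each of the 6 libraries across the MHC class II region, by distance from the HLA-DRA TSS in kb; dotted lines mark TSSs, with the class I processing genes in red. H3K4me3 and H3K27ac peaks stand at TAP2, PSMB8, TAP1 and PSMB9, inside the gap in H3K27me3 that is free of peaks for 48.4 kb in all 6 libraries.

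Interferon factors and induced genes had H3K4me3 in all 6 lists at 9 of 10 genes, in conditions for which the labels name no interferon. IRF1, a factor induced by interferon gamma, had 1963 and 2632 bp under siControl, 2669 and 2846 bp under siControl+TGFβ, and 1827 and 2390 bp under siPHF13+TGFβ. STAT2, a subunit of the factor activated by type I interferon, had 1735 and 1713 bp, 2048 and 2251 bp, and 1647 and 1754 bp. For both genes the siControl+TGFβ libraries were above all others. The STAT2 window also held the TSS of another coding gene, APOF, whose peaks were not separated. ISG15, a ubiquitin-like modifier, had 1888 and 1938 bp, 1990 and 2077 bp, and 1715 and 1893 bp. IFIT3, of the IFIT family of antiviral RNA-binding proteins and their partners, had 1531 and 1820 bp, 2126 and 2132 bp, and 673 and 1880 bp. For IFIT3 the siControl+TGFβ replicates were nearly equal, and the siPHF13+TGFβ replicates were far apart. IFIT1, of the same family, had 1786 and 1712 bp, 1775 and 1816 bp, and 1067 and 1535 bp, and IRF9, which completes the STAT2 complex, 595 and 892 bp, 1038 and 982 bp, and 502 and 826 bp. IRF7 and IFIT2 had means of 1482 and 1480 bp.

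H3K27ac covered 8 of the 10 interferon genes in at least 4 lists. ISG15 had 216 and 857 bp under siControl, 2007 and 978 bp under siControl+TGFβ, and 0 and 1869 bp under siPHF13+TGFβ. IRF1 had 238 and 1083 bp, 1991 and 835 bp, and 0 and 1743 bp. In ISG15 both siControl+TGFβ libraries lay above both siControl libraries, and in IRF1 they overlapped. IFIT2 had 495 and 1243 bp, 1671 and 956 bp, and 178 and 1156 bp, IFIT3 531 and 1016 bp, 1668 and 1257 bp, and 0 and 1192 bp, and IRF9 0 and 484 bp, 920 and 727 bp, and 0 and 836 bp. STAT2 and IFIT2 were the interferon genes with a peak in siPHF13+TGFβ replicate 1.

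MX1 and OAS1, which encode an antiviral GTPase and a sensor of double-stranded RNA, stood apart from the other 8. They had no H3K27ac in any list, although at MX1 a peak lay just outside the window, 5.19 kb upstream where nearest. They were the only interferon genes among the 10 with H3K27me3. In 36 other interferon-stimulated genes each mark was counted alone, and genes that lacked H3K27ac and also carried H3K27me3 were not counted. Of these, 14 (38.9%) had no H3K27ac in any list, near the 37.7% of all coding genes. H3K27me3 was in all 6 lists at 6 (16.7%), against 19.6% of all coding genes. It was in 1 to 5 lists at 16 and in none at 14 (38.9%), against none at 55.6% of all coding genes. At MX1 H3K4me3 spanned 757 and 1063 bp, 1313 and 1025 bp, and 774 and 1015 bp, and H3K27me3 spanned 1005 and 3306 bp, 1586 and 2057 bp, and 0 and 2327 bp. For OAS1 the H3K4me3 values were 505 and 541 bp, 918 and 967 bp, and 0 and 639 bp, and the H3K27me3 values 521 and 694 bp, 800 and 2154 bp, and 0 and 786 bp. In OAS1 both siControl+TGFβ libraries lay above both libraries of either other condition for both marks. At neither gene did a base carry both marks in both libraries of a condition. The nearest H3K27me3 peak to the other 8 interferon genes was 10.7 kb away, at STAT2.

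The class II and interferon genes with few CpG differed in H3K4me3. With at most 5 CpG in 250 bases, a limit chosen after the counts were seen, 769 of 4426 coding promoters (17.4%) had H3K4me3 in all 6 lists. Among members below this limit, 2 of 11 class II genes had it, and 4 of the 5 interferon genes (IRF9, IFIT1, IFIT2 and IFIT3, but not OAS1), and PSMB10 of class I had it too. HLA-DPA1, with 21 CpG, had no H3K4me3 in any list.

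Combining the marks, 8 class I genes, 0 class II genes and 8 interferon genes had an H3K4me3 peak in both siControl libraries and no H3K27me3 peak in both, which held for 54.1% of all coding genes. An H3K27me3 peak without H3K4me3 was found at 1, 8 and 0 genes (HLA-G in class I), against 11.2% of all coding genes. Both marks were in the window of HLA-B, HLA-C, HLA-E, HLA-F, HLA-DQB1, HLA-DMB, CIITA, MX1 and OAS1, against 17.7% of all coding genes. In siControl+TGFβ the genes with both were the same without HLA-E and with CD74, against 19.7% of all. In siPHF13+TGFβ HLA-B, HLA-C, HLA-F, HLA-DQB1 and CIITA had both, against 13.2% of all, whereas HLA-DMB, CD74, MX1 and OAS1 no longer did, each lacking H3K4me3, H3K27me3 or both in replicate 1. The profile around the TSS shows that H3K4me3 and H3K27ac of class I and interferon genes were centred on the TSS, and that H3K27me3 of class II genes extended over the whole window.

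**Figure D4:**
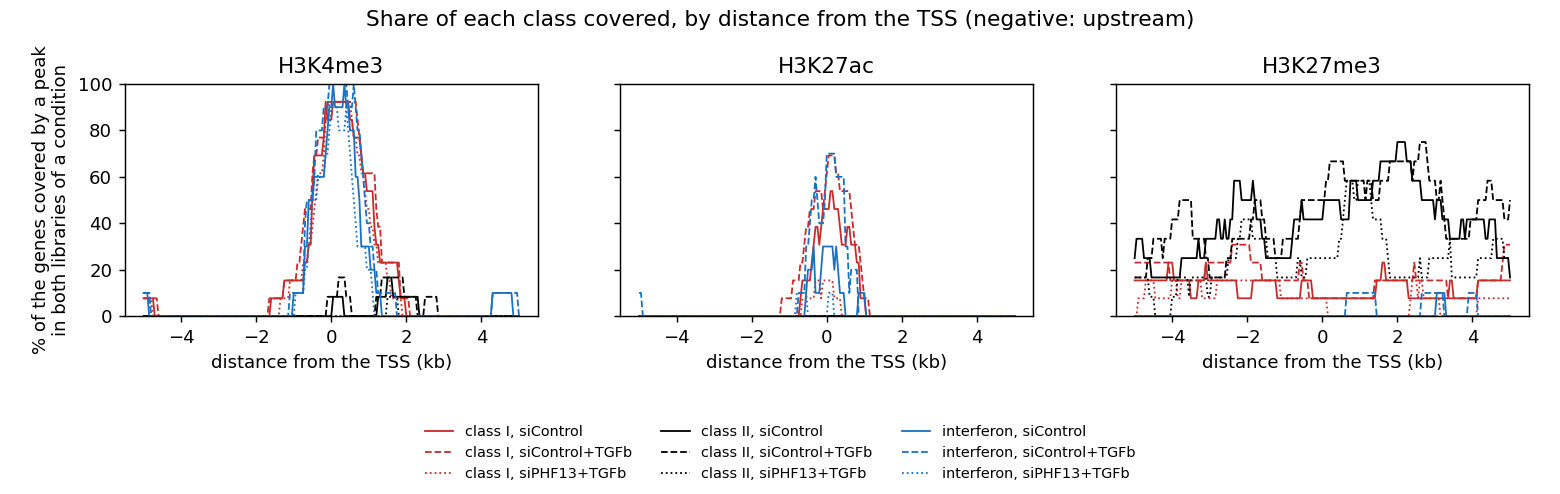
Percentage of the 13 class I (red), 12 class II (black) and 10 interferon genes (blue) covered by a peak in both libraries of a condition, by distance from the TSS in kb (negative: upstream); solid, dashed and dotted lines are siControl, siControl+TGFβ and siPHF13+TGFβ. H3K4me3 and H3K27ac rise at the TSS for class I and interferon genes, and H3K27me3 is spread over the window for class II genes.

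To see how TGFβ changed the marks, siControl+TGFβ was compared with siControl. H3K4me3 and H3K27ac spanned more bp in both TGFβ-treated libraries at many class I and interferon genes, as they did at many coding genes, and no member passed the test for any mark. Bp were tested as log2(bp + 100) with limma over all coding genes with a peak in at least 1 list, and a log2 difference is on that scale throughout. H3K4me3 was higher in both siControl+TGFβ libraries than in both siControl libraries at 13 of the 26 members with a peak and lower at 0, against 45.8% higher and 2.25% lower among the 15274 coding genes with a peak. The count of members is thus near that of all genes. By class the higher genes were 6 of 12 in class I, 0 of 4 in class II and 7 of 10 among the interferon genes. The median log2 difference was 0.08 in class I, 0.55 in class II and 0.28 in interferon genes, against 0.11 over all coding genes, and it was positive for all 26 members, as for 13204 of the 15274 coding genes. No member passed an adjusted p of 0.05 by limma (smallest adjusted p = 0.876), against 0.144% of all genes, and 1 of 26 passed at an unadjusted p of 0.05, against 3.08%. This was STAT2, with a log2 difference of 0.30 ± 0.09 (SE).

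Since most genes were higher, each library was also centred on its median. Then class I genes had a median log2 difference of −0.03 and interferon genes one of 0.17, with all coding genes at 0.0020. Both siControl+TGFβ libraries were higher at 5 of 10 interferon genes (STAT2, IRF7, IRF9, IFIT3 and OAS1) and lower at 0, and higher at 1 of 12 class I genes (TAPBP) and lower at 3 (HLA-E, TAP1 and PSMB9), against 16.0% higher and 18.1% lower over all coding genes. The direction for the class I genes as a group, and for HLA-E, TAP1 and PSMB9 among them, thus turned with centring, and that for the interferon genes as a group did not. A difference between the classes was not tested, since genes are not replicates.

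Of the class I genes with separate libraries, HLA-B had 1834 and 1470 bp under siControl, 1928 and 1850 bp under siControl+TGFβ, and 1657 and 1694 bp under siPHF13+TGFβ. PSMB10 had 2168 and 2214 bp, 2445 and 2543 bp, and 2121 and 2111 bp. For both genes the siControl+TGFβ libraries were the highest of the 6. Largest among the H3K4me3 differences with separate libraries was OAS1, at 0.74 ± 0.96 (SE), then IRF9 at 0.42 ± 0.28, IFIT3 at 0.33 ± 0.46 and STAT2. In class I it was TAPBP at 0.29 ± 0.19, then HLA-B at 0.19 ± 0.12, PSMB10 at 0.18 ± 0.07 and B2M at 0.14 ± 0.13. Apart from STAT2 and PSMB10, the differences were smaller than 2 standard errors. CD74 had the largest difference of all members, 1.65 ± 1.07, but its libraries overlapped.

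Values of H3K27ac at the other genes with separate libraries were 322 and 829 bp under siControl, 1142 and 912 bp under siControl+TGFβ, and 0 and 1100 bp under siPHF13+TGFβ for PSMB8. PSMB10 had 1052 and 1167 bp, 1877 and 1298 bp, and 0 and 1313 bp, and IRF7, the regulator of type I interferon genes, had 477 and 724 bp, 1177 and 804 bp, and 0 and 1088 bp. In each, siControl+TGFβ lay above siControl, and siPHF13+TGFβ replicate 2 lay near siControl+TGFβ. For H3K27ac, 11 of the 19 members with a peak were higher in both siControl+TGFβ libraries and 0 lower, against 53.2% and 0.0319% of 12540 coding genes. IRF9 differed by 1.93, ISG15 by 1.45, TAP1 and PSMB9 by 1.05, IFIT3 by 0.88, PSMB8 by 0.84, IRF7 by 0.64 and PSMB10 by 0.46. B2M, TAPBP and HLA-E differed by 0.39, 0.26 and 0.11. The SE was 1.46 for each, since limma here took the spread to be the same for all genes. The median was 0.46 in class I and 0.91 in interferon genes, against 0.57 over all coding genes. After centring, class I genes stood at −0.14 and interferon genes at 0.31, with all coding genes at −0.03, so that the direction for class I as a group turned here too. Both siControl+TGFβ libraries were then higher at 6 members (TAP1, PSMB9, IRF7, IRF9, ISG15 and IFIT3), against 16.7% of all coding genes. They were lower at 2 (HLA-E, which thus turned, and TAP2), against 20.1%. B2M, TAPBP, PSMB8 and PSMB10 no longer had separate libraries. No member was called by limma (smallest adjusted p = 1), nor was any of all genes (0%), and at an unadjusted p of 0.05 it was 0 members against 0.742% of all genes.

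For H3K27me3, 2 of the 20 members with a peak were higher (HLA-C and OAS1) and 2 lower (HLA-E and HLA-DQB1) in both siControl+TGFβ libraries, against 5.97% and 6.65% of 8943 coding genes. The log2 differences were 0.34 ± 0.92 (SE) for HLA-C, 1.02 ± 1.23 for OAS1, −1.72 ± 1.08 for HLA-E and −0.41 ± 0.73 for HLA-DQB1, all within 2 standard errors, and with each library centred none of the 4 had separate libraries. The median of the 12 class II genes was −0.03, against 0.04 over all coding genes, and 5 were positive and 7 negative. No member was called by limma (smallest adjusted p = 1), nor was any of all genes (0%), and at an unadjusted p of 0.05 it was 0 members against 1.89% of all genes.

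To see how PHF13 depletion under TGFβ changed the marks, siPHF13+TGFβ was compared with siControl+TGFβ. The siControl+TGFβ libraries serve both comparisons, so opposite signs in them are not independent. H3K4me3 spanned fewer bp in both siPHF13+TGFβ libraries at most class I and interferon genes, as at most coding genes, and no member passed the test for any mark. H3K4me3 was lower in both siPHF13+TGFβ libraries at 22 of 26 members and higher at 0, against 59.8% lower and 0.308% higher over all coding genes with a peak. The lower genes were 11 of 12 in class I, 2 of 4 in class II and 9 of 10 among the interferon genes, and without siPHF13+TGFβ replicate 1 there were 22 lower members and 1 higher, against 61.3% and 10.9% of all coding genes. The median log2 difference was −0.21 in class I, −1.38 in class II and −0.37 in interferon genes, against −0.21 over all coding genes. No member passed an adjusted p of 0.05 by limma (smallest adjusted p = 0.420), against 0.183% of all genes. At an unadjusted p of 0.05, 3 members passed, against 8.91% of all genes: STAT2 with −0.32 ± 0.09 (SE), PSMB10 with −0.23 ± 0.07 and CD74 with −3.23 ± 1.07.

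With each library centred on its median, the loss of the class I genes was no longer seen as a group, with a median log2 difference of −0.0017 and 6 genes on either side of 0. Interferon genes stood at −0.16, with 9 of 10 negative, and all coding genes at −0.0045, with 7817 of 15274 negative. Both siPHF13+TGFβ libraries were lower at 5 interferon genes (IRF1, IRF9, IFIT1, IFIT3 and OAS1), at 5 class I genes (HLA-F, B2M, TAP2, TAPBP and NLRC5) and at 2 class II genes (HLA-DMB and CD74), and higher at TAP1 and PSMB9, against 17.7% lower and 19.0% higher over all coding genes. The direction of TAP1 and PSMB9 thus depended on the scaling.

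TAP2 had 1785 and 1612 bp under siControl, 1842 and 1912 bp under siControl+TGFβ, and 1350 and 1649 bp under siPHF13+TGFβ. These values include the edge of the PSMB8 peak inside the TAP2 window. HLA-F had 1445 and 1228 bp, 1439 and 1295 bp, and 977 and 1148 bp, and NLRC5 1105 and 1285 bp, 1248 and 1286 bp, and 937 and 1125 bp. In all 3 genes both siPHF13+TGFβ libraries lay below both siControl+TGFβ libraries, and in HLA-F also below both siControl libraries. Among members with separate libraries, the H3K4me3 differences were largest at CD74 and then at OAS1 (−1.94 ± 0.96), HLA-DMB (−1.64 ± 1.01), IFIT3 (−0.85 ± 0.46), IRF9 (−0.57 ± 0.28) and IFIT1 (−0.46 ± 0.18). In class I they were TAPBP (−0.41 ± 0.19), HLA-F (−0.34 ± 0.13), TAP2 (−0.31 ± 0.12) and NLRC5 (−0.28 ± 0.13). CD74, OAS1 and HLA-DMB had 0 bp in siPHF13+TGFβ replicate 1, where a missing peak sets the size of the difference on this scale. In siPHF13+TGFβ replicate 2, OAS1 had 639 bp and HLA-DMB 600 bp, and CD74 had 0 bp there too.

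For H3K27ac, 1 of 19 members was lower in both siPHF13+TGFβ libraries (IFIT3, −2.11 ± 1.46) and 0 higher, against 10.6% and 0.0159% of all coding genes with a peak. The median was −1.63 in class I and −1.61 in interferon genes, against −1.35 over all coding genes. These differences came with the short list of siPHF13+TGFβ replicate 1, in which 14 of the 19 members and 8513 of the 12540 coding genes had 0 bp. Its median was thus 0 bp, so that centring could not scale this library and is not given. Without it 1 member was lower and 3 were higher, against 10.6% and 29.3% of all coding genes. No member was called by limma (smallest adjusted p = 0.703), nor was any of all genes (0%), and at an unadjusted p of 0.05 it was 0 members against 0.0319% of all genes.

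For H3K27me3, 4 of 20 members were lower in both siPHF13+TGFβ libraries (HLA-C, HLA-DMB, CIITA and OAS1) and 0 higher, against 24.7% and 1.13% of all coding genes with a peak. The median of the class II genes was −0.46, against −0.76 over all coding genes. In siPHF13+TGFβ replicate 1 4454 of the 8943 genes had no peak and the median was 32 bp, so that centring could not scale this library either. Without it 4 members were lower and 8 higher than both siControl+TGFβ libraries, against 25.3% and 26.9% of all coding genes. HLA-DMB differed by −2.50 ± 1.40 (SE), OAS1 by −2.26 ± 1.23, HLA-C by −1.16 ± 0.92 and CIITA by −0.45 ± 0.73. No member was called by limma (smallest adjusted p = 0.883), nor was any of all genes (0%), and at an unadjusted p of 0.05 it was 0 members against 2.38% of all genes. With 2 libraries against 2, an exact permutation test for a single gene cannot go below p = 0.3333, and none was run.

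**Figure D5:**
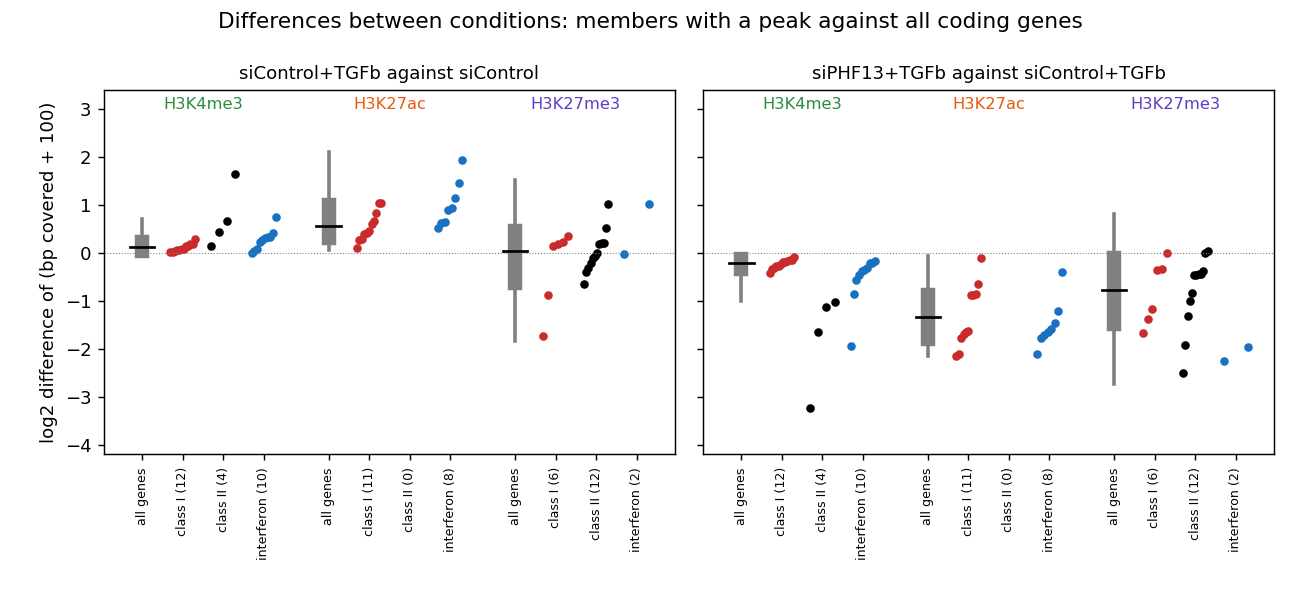
Log2 differences of (bp covered + 100) for the members with a peak (points, 1 per gene, in 3 classes with their number in brackets) beside all coding genes with a peak (grey: thin bar from the 5th to the 95th percentile, thick bar the quartiles, black line the median), for each mark and both comparisons. Members lie mostly within the range of all coding genes; CD74 (−3.23) lies lowest for H3K4me3 under PHF13 depletion.

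Further genes of the pathways were counted from lists. Of 36 other interferon-stimulated genes, 28 had H3K4me3 in all 6 lists, 4 had H3K27ac in all 6 and 6 had H3K27me3 in all 6. Of 19 other antigen processing genes and class II regulators the numbers were 18, 9 and 0, and of 8 interferon receptors and kinases 8, 1 and 0. With TGFβ, H3K4me3 was higher in both libraries at 12 of 35, 8 of 19 and 6 of 8 of these genes with a peak and lower at 0, or 34.3%, 42.1% and 75% against 45.8% of all coding genes. With PHF13 depletion it was lower at 23, 10 and 4 and higher at 0, or 65.7%, 52.6% and 50% against 59.8%. Of these genes limma called RSAD2 alone, the antiviral enzyme viperin, for H3K4me3 under PHF13 depletion. RSAD2 had 478 and 793 bp under siControl, 1040 and 871 bp under siControl+TGFβ, and 0 and 0 bp under siPHF13+TGFβ, a log2 difference of −3.40 ± 0.23 (SE, limma adjusted p = 0.0377). With 0 bp in both libraries, the size of this difference is set by the 100 bp added. Over all coding genes limma called 1 gene higher and 27 lower in this comparison, and it called 0 lower without siControl replicate 1, without siControl+TGFβ replicate 1 or with 500 bp added.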

How the data were processed

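ChIP-seq libraries of PANC-1 cells for 3 histone marks were analysed from 18 peak lists (3 conditions, 2 libraries each), with groups taken from the labels. The 6 input samples, used by the authors as controls, were not analysed here. The authors, by their labels and methods, trimmed reads with Trim Galore 0.4.1, aligned them to hg19 with Bowtie2 2.4.1, removed duplicates with Picard and called peaks per library with MACS2 2.2.7.1, narrow for H3K4me3 and H3K27ac and broad for H3K27me3. For each peak the deposited lists give MACS2's score, its enrichment over the control as a ratio (fold), both p and q as −log10, and a summit offset in narrow lists. The deposited −log10 q went down to 1.30 in narrow lists, below the threshold that the methods state, so a filter at 3 was added after the data were seen. The lists hold no read counts, so depth is unknown, and deeper or better enriched libraries give more and wider peaks. It is not stated whether duplicates were separate cultures, so p-values measure the spread between these libraries.

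Windows of 5 kb on either side of 1 TSS per gene (MANE Select transcript for 18922, Ensembl canonical for 934, gene end for 280 genes) were taken from GENCODE release 44 on GRCh37, and bp covered by merged peaks were counted. Log2(bp + 100) was fitted over all coding genes with a peak in at least 1 list with limma 3.58.1 (R 4.3.3; lmFit, eBayes, 3 conditions in 1 fit), with Benjamini-Hochberg adjustment and a threshold of 0.05. Scripts were tested on simulated data. Python 3.11.15, NumPy 2.4.6, pandas 2.3.3, bedtools 2.31.1 and matplotlib 3.10.9 were used. Motifs were searched on both strands of 250 bases before each TSS. Per mark and class, libraries are given for up to 4 genes with the highest mean, for up to 4 whose conditions did not overlap, and for genes with H3K27me3 in at least 4 lists. Members and lists were chosen with earlier results of these data known. Alternatives were other windows, TSSs, peak sets, added bp, filters, scalings, libraries and a replicate block.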

Additional observations from a re-analysis of the deposited data

How the results depend on the processing

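Presence of H3K4me3 in all lists (12 class I, 2 class II and 9 interferon genes) ranged over 12 to 12, 2 to 3 and 9 to 10 genes when libraries were left out one at a time, and 0 class II genes remained with the 50% strongest peaks or with a −log10 q of at least 3, a filter added after the data were seen. H3K27ac was in all lists at 3 class I and 2 interferon genes, and at 9 and 7 without siPHF13+TGFβ replicate 1 (ranges 3 to 9 and 2 to 7). With lists of equal length these were 1 and 0 genes, with the 50% strongest peaks 1 and 0, and with a −log10 q of at least 3 they were 1 and 1. With all annotated coding TSSs, 1 class II gene (HLA-DMA) had H3K27ac in all lists, and 1 interferon gene had H3K27me3 in all. The H3K27ac counted for HLA-DMA lay 15.0 to 16.2 kb upstream of the TSS used above, and whether it belongs to a neighbouring gene was not examined. H3K27me3 presence ranged over 4 to 4 class I, 9 to 11 class II and 0 to 2 interferon genes, with 2 without siPHF13+TGFβ replicate 1.

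Counts of all coding genes called by limma moved most. For H3K4me3 with TGFβ, 22 genes were called higher and 0 lower, with ranges of 0 to 152 (152 without siControl+TGFβ replicate 2, 0 without either siControl replicate or siControl+TGFβ replicate 1, 2 without either siPHF13+TGFβ replicate) and 0 to 0. The higher calls were 13 with windows of 2.5 kb, 3 with lists of equal length, 100 with the 50% strongest peaks (and 8 lower), 40 with 10 bp added, 0 with 500 bp added, 0 among genes with a peak in at least 4 lists, 9 with no filter, 8 with libraries centred and 2 with the 4 libraries of the comparison only. For H3K4me3 with PHF13 depletion, 1 gene was called higher (range 0 to 29) and 27 lower (range 0 to 156, with 0 without siControl or siControl+TGFβ replicate 1, 156 without siControl+TGFβ replicate 2, and 11 and 43 without siPHF13+TGFβ replicates 1 and 2). The lower calls were 16 with windows of 2.5 kb, 3 with lists of equal length, 157 with the 50% strongest peaks, 47 with 10 bp added, 0 with 500 bp added, 0 with a peak in at least 4 lists and 9 with libraries centred. The higher calls were 2 with the 50% strongest peaks, and 0 with lists of equal length, 500 bp added, a peak in at least 4 lists, no filter or the 4 libraries only. For H3K27ac with depletion the 0 higher and 0 lower calls became 2 and 9123 without siPHF13+TGFβ replicate 2, which leaves the shortest list as the lone library (ranges 0 to 2 and 0 to 9123). For H3K27me3 with TGFβ the 0 higher and 0 lower calls became 16 and 876 without siControl replicate 1 (ranges 0 to 16 and 0 to 876) and 3 and 16 with no filter, and with depletion 3 lower calls arose with no filter. Apart from these constructions, the cause was not tested. A lone library was assumed to vary like the others.

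Same-numbered replicates are not said to be paired. With a replicate block limma called 0 genes higher with TGFβ and 0 genes in either direction with depletion for H3K4me3. Replicate differences correlated at −0.338 and −0.218 for H3K4me3 in these comparisons, and with the numbers crossed the calls were 4 higher with TGFβ, and 0 higher and 0 lower with depletion.

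Members with separate libraries could only rise in number when 1 library was left out, since fewer had to be separate. The ranges were 18 to 20 higher and 0 to 1 lower for H3K4me3 with TGFβ, 0 to 1 higher and 22 to 26 lower with depletion, 11 to 19 higher and 0 to 1 lower for H3K27ac with TGFβ, 0 to 3 higher and 1 to 17 lower with depletion, 2 to 12 higher and 2 to 13 lower for H3K27me3 with TGFβ, and 0 to 8 higher and 4 to 17 lower with depletion. For H3K27ac, lists of equal length gave 4 higher with TGFβ, and with depletion 2 lower members were found with windows of 2.5 kb, 2 with lists of equal length and 4 with the 50% strongest peaks. For H3K27me3 with TGFβ, 1 was higher with the 50% strongest peaks and 1 lower with lists of equal length. With depletion, windows of 2.5 kb gave 1 higher and 1 lower, all coding TSSs 7 lower, and lists of equal length and the 50% strongest peaks 2 lower each. Apart from leaving out libraries, 191 of the recomputed values stayed within the limits set for them and 53 moved.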
